A study of Mus musculus with 8 samples.

Results

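The 10 genes described here belong to the glucocorticoid response and were measured in tibialis anterior, the shin muscle, of mice given Porphyromonas gingivalis by mouth. They were the receptor gene Nr3c1 and 9 genes that the hormone is known to induce: Fkbp5, Tsc22d3, Zbtb16, Sgk1, Klf9, Klf15, Glul, Errfi1 and Ddit4. They were found by gene name among the non-control spots of the arrays, with every probe kept, and are 10 of 24813 genes named on the array. The 10 genes had 21 probes, of which 19 were well above background on all 8 arrays and were tested. The other 2 probes, 1 of Sgk1 and 1 of Tsc22d3, were well above background on no array.

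The 8 muscle samples came from male C57BL/6J mice aged 14 weeks, all on a high-fat diet per the labels' protocols. From 8 weeks of age, the mice behind the 4 P. gingivalis samples were dosed over 6 weeks with this oral anaerobe, carried in 100 µL of saline through a feeding needle. The mice behind the 4 control samples had the same strain, sex, age and diet, but what they were given, the number of bacteria and the hour of sampling are not stated in the labels. The protocol names the dosed mice by group names that appear in no sample title. The labels do not say that each sample came from a separate animal, so the p-values measure the spread between samples, which may be technical. The comparison addresses the muscle response to oral bacteria.

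Glucocorticoids, chiefly corticosterone in mice, enter cells and bind the glucocorticoid receptor, which HSP90 and its co-chaperones hold ready in the cytosol. The bound receptor moves to the nucleus and acts on genes that carry its response elements. In skeletal muscle the hormone is known to restrain glucose use and protein synthesis and to favour protein breakdown and the release of amino acids. Its secretion follows a daily rhythm and also rises with stress and handling.

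RNA was read as Cy3 signal on 8 arrays of 1 slide. All values below are log2 signals relative to the 75th percentile of the array, and a log2 change is P. gingivalis minus control. That percentile was 238 to 255 intensity units on the P. gingivalis arrays and 275 to 306 on the control arrays, before scaling. All P. gingivalis arrays lay in the second row of the slide and all control arrays in the first row, and an effect of the row and of the group cannot be told apart. Spots well above background made up 56.3% to 59.3% of each array. All 8 skeletal muscle markers, among them Ckm and Acta1, were tested, and their summed signal was 5645 to 5917 times the 75th percentile in P. gingivalis muscle and 5100 to 5653 times in control muscle.

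The group labels have a limit that touches each result. The authors also deposited a table of log2 values, and matching its columns to the arrays by correlation over probes put 4 of its 8 columns with an array of the other group. Taken in column order, the matched arrays were control 1, P. gingivalis 1, control 2, P. gingivalis 2 and so on to P. gingivalis 4, so the groups alternate. The files do not show which of the sources names the groups correctly. The values below follow the scanner files, and the main counts are also given with the groups of the value table. Under those groups the control arrays lay in slide columns 1 and 2 and the P. gingivalis arrays in slide columns 3 and 4. Slide column and group cannot be told apart there either.

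Before the values, the upstream sequences of 4 genes are shown because the glucocorticoid receptor is known to bind a palindrome of AGAACA and its reverse complement TGTTCT, spaced by 3 bases. RefSeq promoter windows (GRCm38.p6, 250 bases before to 50 bases after an annotated start) were at hand for 8 of the 10 genes, 16 windows in all, and not for Nr3c1 or Zbtb16. Both strands were searched for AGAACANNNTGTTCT, for its core ACANNNTGT, for AGAACA alone, which also matches within the palindrome, and for CACGTG, the E-box that clock factors are known to bind. Each line gives the 250 bases before the start, 5′ to 3′ on the strand of the gene. In the first pair of lines the capitals mark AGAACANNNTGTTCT and AGAACA or its reverse complement, and in the Fkbp5 line CACGTG.
Sgk1: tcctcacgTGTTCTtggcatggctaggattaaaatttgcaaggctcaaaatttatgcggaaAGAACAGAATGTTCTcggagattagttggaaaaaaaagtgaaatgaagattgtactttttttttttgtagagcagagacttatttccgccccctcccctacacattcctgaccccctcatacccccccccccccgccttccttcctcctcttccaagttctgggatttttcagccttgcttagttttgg
Tsc22d3: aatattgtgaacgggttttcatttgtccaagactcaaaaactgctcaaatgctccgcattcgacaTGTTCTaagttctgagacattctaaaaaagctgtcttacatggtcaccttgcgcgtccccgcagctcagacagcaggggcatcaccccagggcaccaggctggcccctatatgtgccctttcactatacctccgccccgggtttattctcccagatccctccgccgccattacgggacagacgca
Fkbp5: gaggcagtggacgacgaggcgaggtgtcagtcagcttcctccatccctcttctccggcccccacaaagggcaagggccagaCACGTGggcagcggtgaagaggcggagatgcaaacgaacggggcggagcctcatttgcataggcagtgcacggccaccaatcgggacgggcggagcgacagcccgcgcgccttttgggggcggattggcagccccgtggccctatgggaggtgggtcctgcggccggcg
Ddit4: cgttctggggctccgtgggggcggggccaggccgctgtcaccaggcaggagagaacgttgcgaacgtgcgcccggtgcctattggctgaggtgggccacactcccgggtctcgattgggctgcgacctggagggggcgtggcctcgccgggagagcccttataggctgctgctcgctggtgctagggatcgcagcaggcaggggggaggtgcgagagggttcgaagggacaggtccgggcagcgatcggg

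The Sgk1 stretch lies at chr10:21993640-21993889 on the plus strand, and Sgk1 alone of the 8 genes held the full palindrome, which reads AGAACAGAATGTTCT. It ends 175 bases before that start and 951 bases before the next of the 6 annotated starts of the gene. Only 3 of 32851 windows on the whole table held this palindrome (0.00913%). The Tsc22d3 stretch (chrX:140600523-140600772, minus strand) held 1 copy of AGAACA on the opposite strand, a motif present in 19% of all windows. The Fkbp5 stretch (chr17:28486150-28486399, minus strand) held 1 CACGTG, present in 7.15% of windows. The Ddit4 stretch (chr10:59951771-59952020, minus strand) held none of the 4 motifs. The core ACANNNTGT was found in 3 of the 16 windows, of Sgk1 and Glul, against 6.85% of all windows. In the Sgk1 stretch printed above it is the inner part of the palindrome. CACGTG was also found 3 times in the Klf15 window and once in the Sgk1 stretch printed above, where it overlaps the first copy of TGTTCT. A match describes letters in these windows only, since response elements can lie far from a start.

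Across the 10 genes, signal stood higher on average in P. gingivalis muscle for 8 and lower for 2, but no gene passed the adjusted threshold. By limma, 0 of the 10 genes and 0 of 31649 probes had an adjusted p under 0.05 (0.0% of probes). The adjusted p of the 10 genes ran from 0.329 for Tsc22d3 to 0.987 for Errfi1. Of all 16004 tested genes, 45.7% had a log2 change above 0. At an unadjusted p under 0.05 by limma, 2 of the 10 genes, Fkbp5 and Tsc22d3, were higher and 0 were lower, where 4.87% of all genes were higher and 5.83% lower (10.7% in either direction). Of the 19 probes 15 were higher, and 4 had an unadjusted p under 0.05, all higher, against 4.84% of all tested probes. The median log2 change of the 10 genes was 0.22, against −0.01 for all tested genes. With the groups of the value table put on the same arrays, 4 of the 10 genes were higher, 0 had an unadjusted p under 0.05 and the median was −0.03. Under those groups 3.87% of all tested probes had an unadjusted p under 0.05 by limma.

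**Figure D1:**
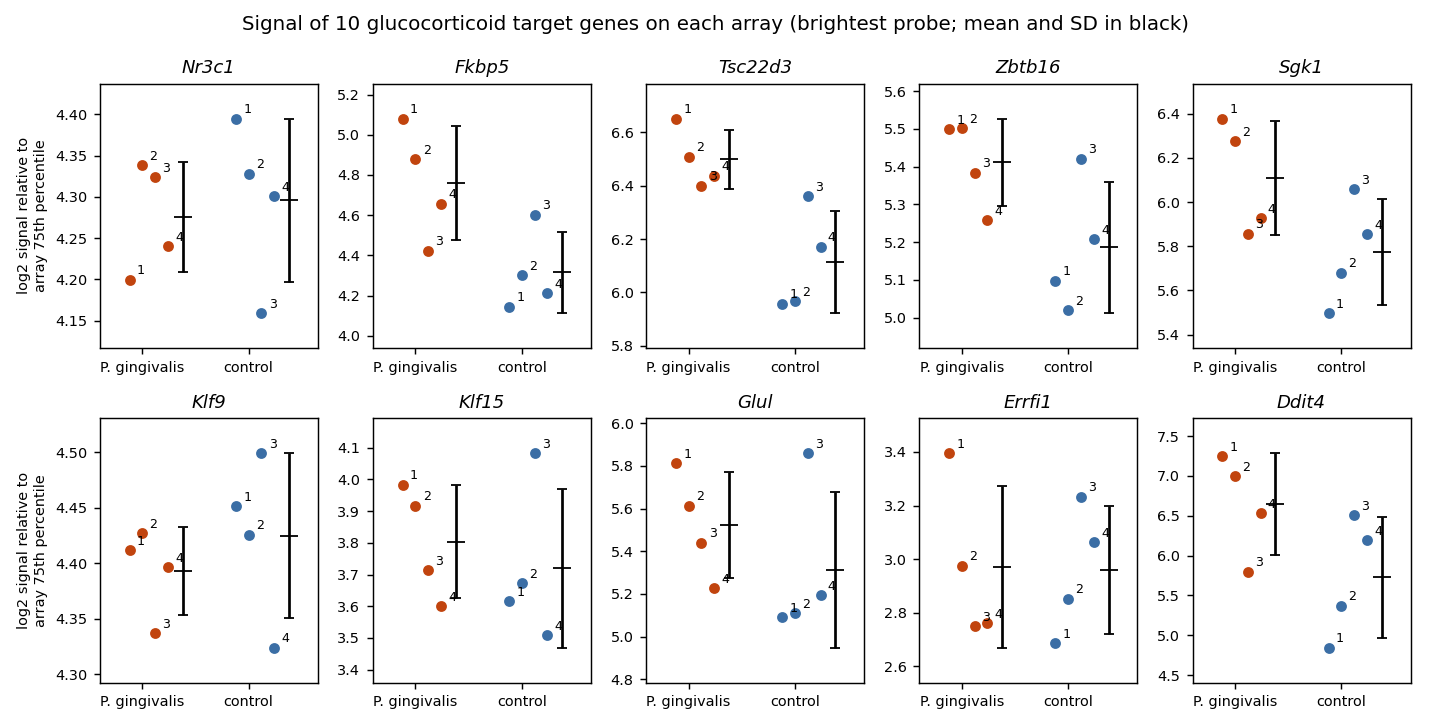
Log2 signal relative to the array's 75th percentile (vertical axis, own scale for each gene) on the brightest probe of each of the 10 genes, with P. gingivalis arrays in red and control arrays in blue. Numbers are replicate numbers, and black bars are the mean and SD of 4 arrays. P. gingivalis 1 and 2 and control 3 are the high points for most genes, and Tsc22d3 alone shows groups that do not overlap.

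The receptor gene Nr3c1 lay within a narrow range on all 8 arrays. Its brighter probe read 4.20, 4.34, 4.32 and 4.24 on P. gingivalis arrays 1 to 4, against 4.39, 4.33, 4.16 and 4.30 on control arrays 1 to 4. The groups overlapped, and the log2 change was −0.02 ± 0.07 (SE; 95% confidence interval −0.18 to 0.14). The dimmer probe differed by −0.12 ± 0.08 (adjusted p = 0.591 by limma). As fold differences, the 95% interval was 0.881 to 1.10 on the brighter probe and 0.816 to 1.04 on the dimmer probe.

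Fkbp5 and Tsc22d3 had the lowest p-values of the 10 genes. Fkbp5 encodes FKBP51, an HSP90 co-chaperone that lowers the affinity of the receptor for its hormone and so closes a feedback loop. Its brightest probe (mm9, chr17:28536060-28536119) read 5.08, 4.88, 4.42 and 4.66 on P. gingivalis arrays 1 to 4, against 4.14, 4.30, 4.60 and 4.21 on control arrays 1 to 4. P. gingivalis 1, 2 and 4 stood above all 4 controls, and P. gingivalis 3 lay below control 3. The signal was 1.36-fold higher on average (interval 1.06 to 1.74, unadjusted p = 0.0205, adjusted p = 0.384 by limma). The means were 4.76 ± 0.28 in P. gingivalis muscle and 4.31 ± 0.20 in control muscle (SD, n = 4 each).

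The other probes of Fkbp5 went the same way with wider intervals. The second lies at mm9 chr17:28574995-28575054 on the minus strand, and its 60 bases are shown because it reads the same RefSeq transcript as the brightest probe at a separate site.
Fkbp5 probe: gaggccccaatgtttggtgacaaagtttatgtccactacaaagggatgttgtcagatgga
It read 1.04, 0.83, 0.17 and 0.35 on P. gingivalis arrays 1 to 4, against −0.11, 0.24, 0.61 and 0.22 on control arrays 1 to 4. The log2 change was 0.36 ± 0.22 (SE), and the groups overlapped. The dimmest probe differed by 0.71 ± 0.31 (unadjusted p = 0.0476, adjusted p = 0.443 by limma). On all 3 probes P. gingivalis 1 was the highest array, followed by P. gingivalis 2, and control 3 was the highest control.

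Tsc22d3 encodes GILZ, a leucine zipper protein that carries part of the anti-inflammatory action of the hormone. Its brightest probe (mm9, chrX:137074094-137074153) read 6.65, 6.51, 6.40 and 6.44 on P. gingivalis arrays 1 to 4, against 5.96, 5.97, 6.36 and 6.17 on control arrays 1 to 4. It was the only one of the 10 genes whose groups did not overlap on the brightest probe, where 3.25% of all genes had groups apart in this direction. The gap to control 3 was small, and the signal was 1.31-fold higher on average (interval 1.10 to 1.55, unadjusted p = 0.00625, adjusted p = 0.329 by limma). The second tested probe differed by 0.37 ± 0.11 (SE), with P. gingivalis 3 at 5.22 and control 3 at 5.32, so its groups overlapped. Tsc22d3 stayed at an unadjusted p under 0.05 in each fit that left out 1 array, with log2 changes of 0.33 to 0.47.

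Fkbp5 did not do so in all of them. Its unadjusted p was over 0.05 when P. gingivalis 1, P. gingivalis 2, control 1 or control 4 was left out. Its log2 change ran from 0.34 to 0.56 over all 8 such fits. With the groups of the value table Tsc22d3 stood at 0.07 and Fkbp5 at −0.13.

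Zbtb16 and Sgk1 stood higher on average with unadjusted p just over 0.05. Zbtb16 encodes PLZF, a zinc finger transcription factor that is strongly induced by the hormone in many cells. Its brighter probe (mm9, chr9:48462419-48462478) read 5.50, 5.50, 5.38 and 5.26 on P. gingivalis arrays 1 to 4, against 5.10, 5.02, 5.42 and 5.21 on control arrays 1 to 4. P. gingivalis 1 and 2 stood above all controls, and control 3 stood above P. gingivalis 3 and 4. The log2 change was 0.22 ± 0.10 (SE; unadjusted p = 0.0568, adjusted p = 0.454 by limma).

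The second Zbtb16 probe is shown because its 60 bases map to a stretch of 52017 bases (mm9, chr9:48473399-48525415, minus strand), so it reads RNA joined across an intron.
Zbtb16 probe: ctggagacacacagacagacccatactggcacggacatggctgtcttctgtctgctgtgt
It read 0.06, −0.01, −0.05 and −0.16 on P. gingivalis arrays 1 to 4, against −0.52, −0.45, 0.21 and −0.21 on control arrays 1 to 4. Its change of 0.20 ± 0.15 (SE) was close to that of the brighter probe. Control 3 was the highest array of all 8 on this probe. Arrays grouped as in the value table gave a change of 0.04 on the brighter probe.

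Sgk1, whose upstream palindrome is printed above, encodes a kinase that acts on ion channels and on FOXO factors. Its measured probe (mm9, chr10:21719390-21719449) read 6.38, 6.28, 5.86 and 5.93 on P. gingivalis arrays 1 to 4, against 5.50, 5.68, 6.06 and 5.85 on control arrays 1 to 4. Only P. gingivalis 1 and 2 stood above control 3. The signal was 1.26-fold higher on average (interval 0.985 to 1.62, adjusted p = 0.462 by limma), an interval that includes no change. Sgk1 stood at −0.03 with the groups of the value table.

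Ddit4 had the widest spread of the 10 genes. It encodes REDD1, which restrains the growth kinase complex mTORC1 and is induced by glucocorticoids, hypoxia and other stresses. Its probe (mm9, chr10:59412486-59412545) read 7.25, 7.0, 5.80 and 6.53 on P. gingivalis arrays 1 to 4, against 4.84, 5.37, 6.51 and 6.19 on control arrays 1 to 4. P. gingivalis 1, 2 and 4 stood above all controls, while P. gingivalis 3 lay below controls 3 and 4. The means were 6.64 ± 0.64 in P. gingivalis muscle and 5.73 ± 0.76 in control muscle (SD, n = 4 each). The signal was 1.89-fold higher on average, with an interval of 0.963 to 3.70 (adjusted p = 0.460 by limma). The log2 change of 0.92 was 0.62 to 1.20 over the fits that left out 1 array, but 0.14 with the groups of the value table (unadjusted p = 0.794 by limma).

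The metabolic members showed smaller differences. Glul encodes glutamine synthetase, which makes the glutamine that muscle exports. Its brightest probe (mm9, chr1:155756765-155756824) read 5.81, 5.61, 5.44 and 5.23 on P. gingivalis arrays 1 to 4, against 5.09, 5.11, 5.86 and 5.19 on control arrays 1 to 4. Control 3 was the highest of all 8 arrays, and each P. gingivalis array stood above the other 3 controls. The log2 changes on the 3 Glul probes were 0.21, 0.20 and 0.24, each within the spread between arrays (lowest unadjusted p = 0.195 by limma). Without control 3 the change on the brightest probe was 0.39, and with the value table's groups it was 0.02.

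Klf15 encodes a transcription factor that turns on amino acid breakdown in muscle. Its probe (mm9, chr6:90424982-90425040) read 3.98, 3.92, 3.71 and 3.60 on P. gingivalis arrays 1 to 4, against 3.62, 3.67, 4.08 and 3.51 on control arrays 1 to 4. Control 3 was again the highest array. The log2 change was 0.08 ± 0.14 (SE; interval −0.24 to 0.40), 0.20 without control 3 and −0.07 with the groups of the value table. Klf9 encodes a related factor induced by the hormone, and its brighter probe (mm9, chr19:23240410-23240469) read 4.41, 4.43, 4.34 and 4.40 on P. gingivalis arrays 1 to 4, against 4.45, 4.43, 4.50 and 4.32 on control arrays 1 to 4. Its log2 change was −0.03 ± 0.06 (SE; interval −0.17 to 0.11), the narrowest interval of the 10 genes. The groups on its dimmer probe lay narrowly apart, at 4.224 to 4.297 in P. gingivalis and 4.301 to 4.421 in control muscle. The change was −0.07 (unadjusted p = 0.22, adjusted p = 0.637 by limma). On their brightest probes, 3.82% of all genes had groups apart in this direction.

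Errfi1 encodes MIG6, a feedback inhibitor of the EGF receptor. Its brighter probe (mm9, chr4:150242886-150242945) read 3.39, 2.98, 2.75 and 2.76 on P. gingivalis arrays 1 to 4, against 2.69, 2.85, 3.23 and 3.06 on control arrays 1 to 4. P. gingivalis 1 was highest and control 3 second. The log2 change was 0.01 ± 0.17 (SE; interval −0.38 to 0.40), and its sign turned under 7 of 20 alternatives. The other Errfi1 probe differed by 0.18 ± 0.09 (SE; adjusted p = 0.473 by limma), with control 3 the lowest of all 8 arrays, so the 2 probes ranked the arrays differently.

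**Figure D2:**
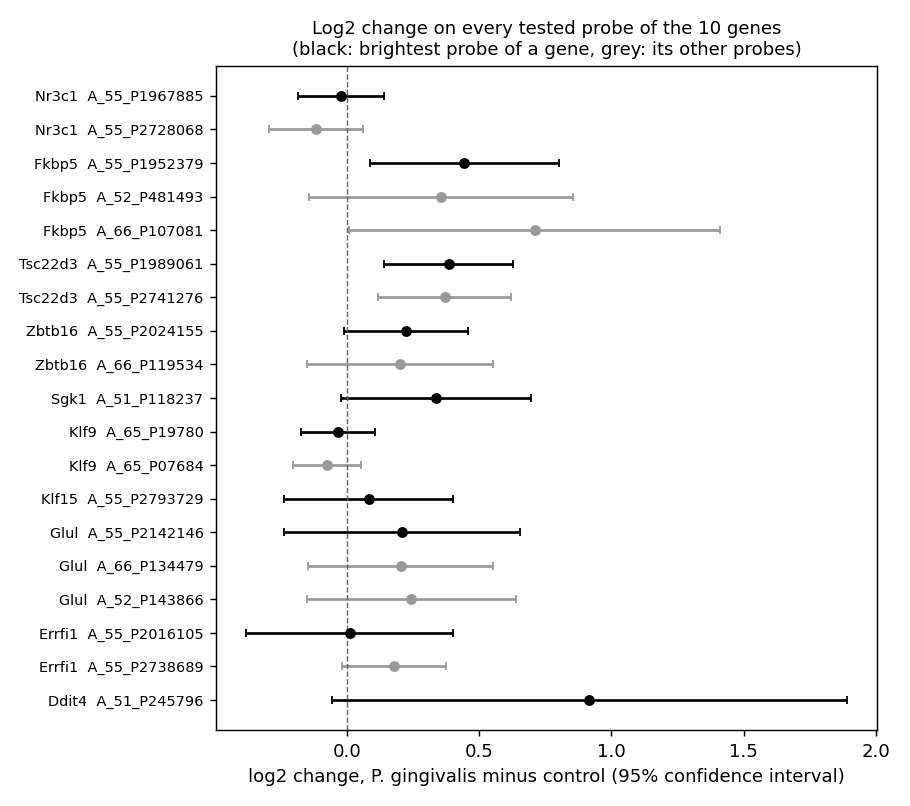
Log2 change (P. gingivalis minus control, horizontal axis) with its 95% confidence interval for each of the 19 tested probes, the brightest of each gene in black and the others in grey. Of the 19 changes, 15 lie above 0, and the intervals of 2 Fkbp5 and 2 Tsc22d3 probes lie wholly above 0.

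The same few arrays were high for most of the 10 genes on their brightest probes, with Nr3c1 as an exception. Among the controls, control 3 was highest for 9 of the 10 genes, where it was highest of the controls for 19.9% of all tested genes. Among the P. gingivalis arrays, P. gingivalis 1 was highest for 7 and P. gingivalis 2 for 3 of the 10, where those arrays were highest for 30.9% and 20.8% of all genes. P. gingivalis 3 was lowest of its group for 6 of the 10, and control 1 was lowest of the controls for 6. The share of all genes lowest of their group was not computed. Control 1 was lowest of all 8 arrays for 6 of the 10, against 9.42% of all genes. P. gingivalis 3 was so for 0, against 13.2% of all genes. The brighter Nr3c1 probe ran the other way, with P. gingivalis 1 the lowest P. gingivalis array, control 1 the highest control and control 3 the lowest. On the dimmer Nr3c1 probe P. gingivalis 1 was again the lowest, at 2.82, but control 3 was the highest of all 8 arrays, at 3.15. The median of the 10 genes, each centred on its mean over 8 arrays, was 0.37, 0.20, −0.06 and −0.03 on P. gingivalis arrays 1 to 4, against −0.30, −0.25, 0.12 and −0.09 on control arrays 1 to 4. The same median over all genes lay between −0.01 and 0.03 on all 8 arrays. Control 3 stood above P. gingivalis 3 and 4 on this measure.

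The number of genes with a low p depended on single arrays. Without control 3, 6 of the 10 genes had an unadjusted p under 0.05, all higher: Fkbp5, Tsc22d3, Zbtb16, Sgk1, Glul and Ddit4. The median log2 change was then 0.35, the lowest adjusted p of the 10 was 0.245 by limma, and 12.7% of all probes had an unadjusted p under 0.05. The count was 1 when P. gingivalis 1, P. gingivalis 2, control 1 or control 4 was left out, where 8.91% to 10.6% of all probes had such a p. It was 4 when P. gingivalis 3 was left out, where 10.2% of all probes did.

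**Figure D3:**
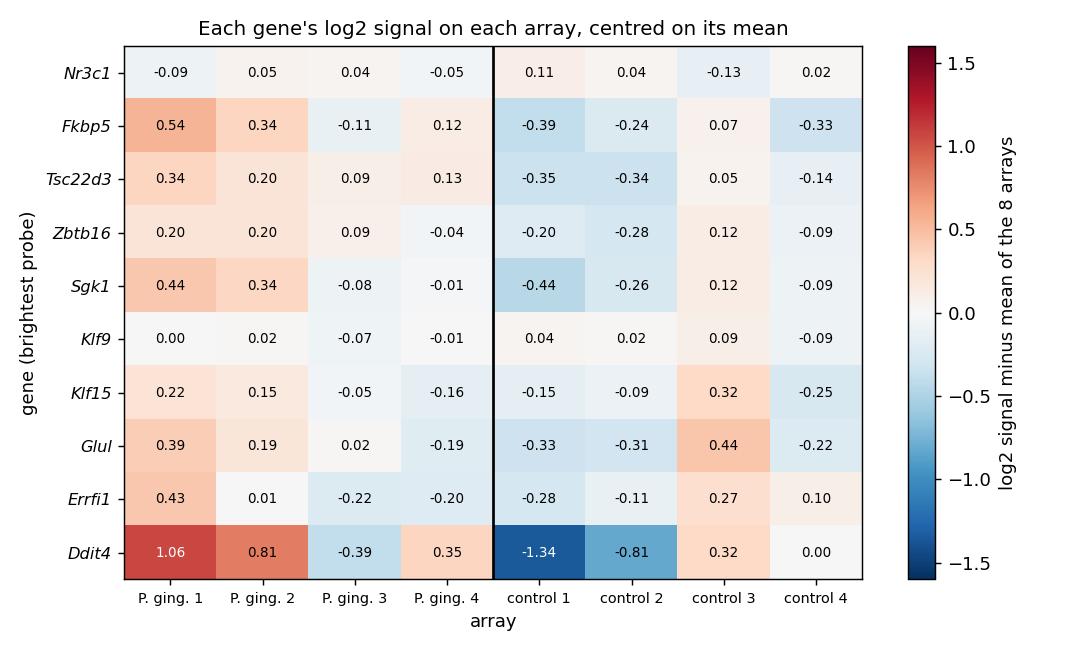
Log2 signal of the brightest probe of each gene (rows) on each array (columns, P. gingivalis left of the line and control right), minus the gene's mean over the 8 arrays. The columns of P. gingivalis 1, P. gingivalis 2 and control 3 are mostly red, those of control 1 and control 2 mostly blue, and the rows of Nr3c1 and Klf9 are nearly white.

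The genes whose profile over the 8 arrays lay nearest to that of Fkbp5 included Sgk1. Likeness was the root mean square difference between centred log2 profiles, and the own root mean square deviation of Fkbp5 was 0.308. The 5 nearest genes were Ccbe1 (0.0535), a regulator of lymphatic vessel growth, Aoah (0.105), a lipase that deacylates bacterial lipopolysaccharide, Sgk1 (0.108), Klhl2 (0.116), and Thrsp (0.122), which takes part in lipogenesis. Nearest to Ddit4, whose own deviation was 0.761, were Cbln2 (0.184), Enox1 (0.268), Olfml3 (0.284), Zfp36 (0.337), which speeds the decay of cytokine mRNA, and Nmb (0.351), a peptide of the bombesin family. Cbln2 and Enox1 were well above background on only 5 of the 8 arrays.

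Beyond the 10 genes, other known glucocorticoid targets were examined. Of 32 such genes, all tested, 23 were higher and 9 lower in P. gingivalis muscle, with a median log2 change of 0.12 against −0.01 for all genes. At an unadjusted p under 0.05 by limma, 2 were higher and 2 lower, where 4.87% of all genes were higher and 5.83% lower, and 0 had an adjusted p under 0.05. Mertk encodes a receptor kinase for the uptake of dying cells. It stood at −2.67 ± 0.13 in P. gingivalis muscle and −3.17 ± 0.17 in control muscle (SD, n = 4 each, adjusted p = 0.309 by limma). Its groups did not overlap, as for 3.25% of all genes in this direction. Hif3a, a hypoxia-inducible factor subunit, read −0.51, −0.66, −1.42 and −1.19 on P. gingivalis arrays 1 to 4, against −2.13, −1.88, −1.34 and −1.98 on control arrays 1 to 4. Here too P. gingivalis 1 and 2 were highest and control 3 the highest control, and the average difference was 1.85-fold (adjusted p = 0.327 by limma).

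The 2 that were lower at this threshold were Bcl6 and Fbxo32. Bcl6, a transcriptional repressor, stood at 4.17 ± 0.17 in P. gingivalis muscle and 4.62 ± 0.11 in control muscle (SD, n = 4 each; adjusted p = 0.322 by limma). Fbxo32 encodes atrogin-1, a ubiquitin ligase of muscle wasting, and stood at 3.63 ± 0.14 in P. gingivalis muscle and 3.89 ± 0.14 in control muscle (SD, n = 4 each). Both had groups that did not overlap, as 3.82% of all genes did in this direction. The median of the 32 genes was −0.02 when arrays were grouped as in the value table.

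Genes that act on the receptor or its ligand showed no shared direction. Of 19 chaperones, cofactors and ligand enzymes 18 were tested, with 8 higher, 10 lower and a median of −0.01. At an unadjusted p under 0.05 by limma 2 were higher and 3 lower, where 4.87% of all genes were higher and 5.83% lower. Groups were apart for 1 higher and 3 lower genes, against 3.25% and 3.82% of all genes. Ptges3, the HSP90 co-chaperone p23, was lower by −0.34 ± 0.07 on the log2 scale (SE; adjusted p = 0.309 by limma), and its groups did not overlap. Hsp90aa1 (−0.26) and the co-chaperone Ppid (−0.19) were the other lower genes with an unadjusted p under 0.05. Also lower were Hsp90ab1 (−0.13), Fkbp4 (−0.13, its other probes at −0.09 and 0.04) and Stip1 (−0.12, its other probe at 0.18). The chaperone genes Hspa8 (0.003), Stub1 (0.0007) and Bag1 (−0.01) stood near 0. Hsd11b1, which regenerates active hormone inside cells, was higher by 0.33 ± 0.11 (SE), at 2.18, 2.10, 1.80 and 1.93 on P. gingivalis arrays 1 to 4, against 1.59, 1.53, 1.72 and 1.86 on control arrays 1 to 4. Nr3c2, the mineralocorticoid receptor, was higher by 0.26 ± 0.10 (SE; adjusted p = 0.405 by limma), with 0.25 on its other probe.

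Genes linked to Klf15, Ddit4 and Errfi1 were set beside them. Of 12 amino acid genes linked to Klf15, 3 were higher and 9 lower, with a median of −0.06. Gpt2, an alanine transaminase, was higher by 0.23 ± 0.07 (SE, adjusted p = 0.338 by limma). Its groups were apart, as were those of 3.25% of all genes in this direction. Got1 stood at −0.11 with its other probes at 0.10 and 0.05, and Gpt stood at −0.10 with its other probe at 0.03. Of 12 regulators of mTORC1 beside Ddit4, 5 were higher and 7 lower, with a median of −0.02. Sesn3, a stress-induced inhibitor of that complex, stood at 0.20, Eif4ebp1, a translation repressor that it phosphorylates, at −0.22, and Ddit4l, the paralog of Ddit4, at −0.45 (interval −1.29 to 0.38).

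Among 10 genes of the EGF receptor family and its ligands, which MIG6 restrains, 8 were tested and 7 were higher, with a median of 0.16. Among these 8, 4 had an unadjusted p under 0.05 by limma, all higher, where 4.87% of all genes were. They were Lrig1 (0.18), a negative regulator of the receptor, the ligand genes Nrg1 (0.28, with its other probe at 0.05) and Hbegf (0.61), and Egfr itself (0.34). Against these, a dimmer probe of the ligand gene Egf stood at −0.60 (unadjusted p = 0.00278 by limma), the lowest p of any probe in the list, while its other probes stood at 0.10 and 0.04. Egfr read 1.25, 1.04, 0.93 and 0.79 on P. gingivalis arrays 1 to 4, against 0.57, 0.45, 0.71 and 0.92 on control arrays 1 to 4, so the groups overlapped. None of the 8 passed adjustment (adjusted p of 0.402 for Egfr by limma).

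**Figure D4:**
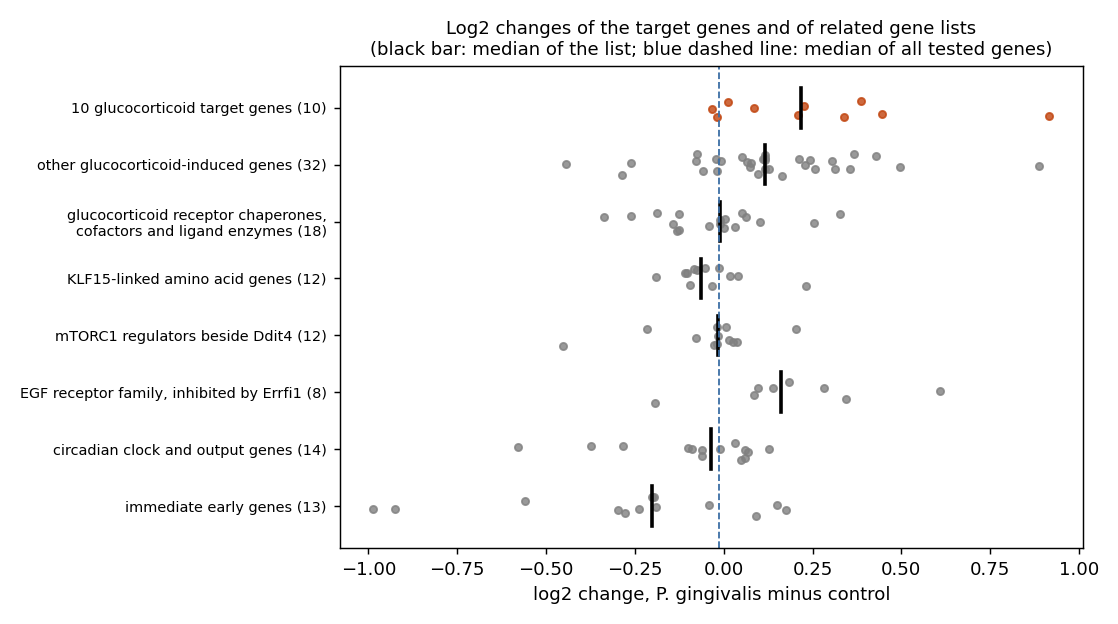
Log2 change (P. gingivalis minus control, horizontal axis) of each tested gene, 1 point a gene, in the 10 target genes (red) and 7 related lists (grey), with the number tested in brackets. Black bars are list medians, 0.22 for the target genes and 0.12 for the other glucocorticoid-induced genes, and the dashed line is the median of all tested genes (−0.01).

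The hour of sampling is not given, and several of the 10 genes follow the daily rhythm of the hormone, so clock genes are given beside them. Of 15 clock and clock output genes 14 were tested, 6 higher and 8 lower, with a median of −0.03. Nr1d1 codes for REV-ERBα, a repressor within the clock. It read 0.18, 0.34, 0.38 and 0.21 on P. gingivalis arrays 1 to 4, against 1.06, 0.70, 0.86 and 0.80 on control arrays 1 to 4. It was the only clock gene with groups apart (adjusted p = 0.309 by limma), where 3.82% of all genes were apart in this direction. Bhlhe40 stood at −0.28, and Ciart at −0.37 on one probe and 0.31 on the other. Of 14 immediate early genes, which respond within minutes to handling and many other stimuli, 13 were tested, 3 higher and 10 lower, with a median of −0.20. At an unadjusted p under 0.05 by limma 0 were higher and 2 lower, where 4.87% of all genes were higher and 5.83% lower. These were Junb, at −0.28 (interval −0.43 to −0.12), and Fosb, at −0.56 (interval −0.95 to −0.17). The groups of Junb were apart, as were those of 3.82% of all genes in this direction. Fos stood at −0.99 (interval −2.05 to 0.08). The part of the clock and immediate early genes in the differences of the 10 genes was not tested.

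Markers of other cells in the muscle piece are given beside the 10 genes. In bulk tissue fewer cells of a type and less RNA per cell cannot be told apart. Of 7 fibroblast genes 7 were higher, with a median log2 change of 0.36, against 0.22 for the 10 genes. An unadjusted p under 0.05 by limma was found for 4 of the 7, all higher, where 4.87% of all genes were. Groups were apart for 3 of the 7, against 3.25% of all genes in this direction. These 3 were the matrix genes Lum (0.65), Col3a1 (0.94) and Col1a1 (1.01). The other probes of Col3a1 stood at 0.66 and 0.11, and those of Col1a1 at 1.09 and 1.32. The summed signal of all 7 fibroblast genes was 307 to 364 times the 75th percentile in P. gingivalis muscle and 242 to 321 times in control muscle. Control 3 was the highest control and P. gingivalis 1 the highest of all. Tendon genes (5 of 5 higher) summed to 28.9 to 36.3 in P. gingivalis and 19.6 to 28.5 in control muscle, and macrophage genes (4 of 5 higher) to 9.19 to 12.9 in P. gingivalis and 6.77 to 9.19 in control muscle. Endothelial genes (0 of 5 higher) summed to 7.87 to 10.3 in P. gingivalis and 9.36 to 11.7 in control muscle. Of these, Kdr stood at −0.59 and the rest at −0.05 to −0.01. Neutrophil genes (0 of 5 higher, Ngp not above the detection filter) summed to 0.497 to 0.668 in P. gingivalis muscle and 0.627 to 3.58 in control muscle, lowest of the controls in control 3. Among them S100a9 stood at −2.93 and S100a8 at −3.42, and the rest stood at −0.14 to −0.04. S100a8 was well above background on only 2 of the 4 P. gingivalis arrays. Adipocyte genes (4 of 5 higher) summed to 3.86 to 13.0 in P. gingivalis and 4.71 to 9.79 in control muscle, highest in P. gingivalis 1 and, among controls, in control 3. Schwann cell and melanocyte genes (3 of 5 higher, Tyrp1 not above the filter) summed to 3.27 to 4.26 in P. gingivalis and 3.12 to 3.69 in control muscle. Keratinocyte genes (0 of 4 higher, Krt1 not above the filter) summed to 1.36 to 1.51 in P. gingivalis and 1.20 to 16.7 in control muscle, with control 4 the high array. At an unadjusted p under 0.05 by limma there were 1 tendon and 2 macrophage genes higher and 1 endothelial and 2 neutrophil genes lower. There was also 1 Schwann cell or melanocyte gene in each direction. Of all genes, 4.87% were higher and 5.83% lower at that p. The part of these cells in the differences of the 10 genes was not tested.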

How the data were processed

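Spot intensity values were deposited by the authors as Agilent Feature Extraction output (version 11.0.1.1 per the file headers, 11.1 per the submitters' processing notes), 1 colour, with 59305 non-control spots and probe positions on mm9. Per the file headers, processed intensities had spatial and multiplicative detrending and surrogates for dim spots, and no normalization across arrays. The log2 value table that the authors deposited covers 24764 probes, and its scaling and centring stay unknown (column medians 7.357 to 7.374). Each column matched 1 array at a correlation of 0.833 to 0.88 over probes (next best at most 0.0784).

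From the processed intensities, log2 values were taken and scaled by subtracting the 75th percentile of all non-control spots on the array. Outlier spots (0.108% to 0.218%) were dropped and repeat spots of a probe averaged. A probe was tested when well above background on at least 4 of 8 arrays, which held for 31649 of 56605 probes. Each gene takes its values from its brightest tested probe. RefSeq tables of GRCm38.p6 gave the names (32994 probes by accession, 10224 by symbol, 520 by synonym, 12867 unnamed). The test was limma 3.58.1 (R 4.3.3; lmFit, eBayes) on group alone, two-sided, adjusted by Benjamini-Hochberg over the tested probes. It was tested on simulated data. Alternatives covered scaling, background correction, filters, variance model, array weights, a replicate block, the value table, the group labels and leaving out each array. The small number of arrays limits the precision.

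The members, the 7 gene lists and the 9 marker lists were chosen with earlier results of these data known. By rule, all 10 members were named with every probe, as were the 3 genes of lowest p in each gene list and the 5 genes most like Fkbp5 and Ddit4 in profile. Fbxo32, Hsp90aa1, Ppid, Hsp90ab1, Fkbp4, Stip1, Hspa8, Stub1, Bag1, Hbegf, Egf, Lum, Col3a1, Col1a1, Kdr, S100a8, S100a9, Dct and Mbp were named after their values were seen.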

Additional observations from a re-analysis of the deposited data

Results flagged for a closer look

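Of 38 sets of 4 arrays examined (19 tested member probes in each group), 2 held an array far from the other 3, where chance gives about 1 in 20. Both were control 3. On the second probe of Tsc22d3 control 3 read 5.32, while the other controls read 4.93 to 4.97. On the brightest probe of Glul it read 5.86, while the other controls read 5.09 to 5.19.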

How the results depend on the processing

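None of the 10 genes passed adjustment under any of 20 alternatives (lowest adjusted p 0.0603 for Tsc22d3 under normexp, by limma). Over all probes the calls numbered 0, with 14 under normexp, 2 without a filter, 2 with an intensity trend and 1 in the value table with matched columns. Of 3544 probes with an unadjusted p under 0.05, 43.2% were higher in P. gingivalis muscle, as were 78.5% of 9094 under normexp. That count was 906 in the value table under its own labels and 1224 with its groups. Members at an unadjusted p under 0.05 numbered 2, but 5 under normexp and 5 with an intensity trend. They numbered 0 in the value table under its own labels, 0 with its groups and 1 to 6 on leaving out an array. The share of all probes at that p was 11.2% in the main fit, 28.7% under normexp and 12.4% with the trend. It was 3.66% under the value table's own labels, 3.87% with its groups and 8.91% to 12.7% on leaving out an array. The replicate block gave 1 member (10.8% of all probes). Same-numbered arrays did not deviate together (correlations of 0.0069 to 0.0629), with 1 of 8 arrays closest to its own number. Higher members numbered 8, and 4 with the groups of the value table. Their median was 0.0101 in that table under its own labels (8 members) and −0.0298 with its groups. The list of 32 genes had 4 at an unadjusted p under 0.05, and 7 on the 4 arrays given 1 group by both sources. Signs turned with the groups of the value table for Fkbp5 (−0.13), Sgk1 (−0.034), Klf15 (−0.071) and Errfi1 (−0.025), under its own labels for Nr3c1 (0.016) and Klf15 (−0.007), and with matched columns for Klf9 (0.0205). Errfi1 also turned under normexp (−0.031), array weights (−0.022) and the 4 shared arrays (−0.014). On leaving out an array Errfi1 ran from −0.13 to 0.10 and Nr3c1 from −0.066 to 0.013, turning for Errfi1 without P. gingivalis 1, control 1 or control 2 and for Nr3c1 without P. gingivalis 1 or control 1. The causes were not tested. Tsc22d3, Zbtb16, Glul and Ddit4 kept their sign under all alternatives that gave them a value, but with the groups of the value table their changes were 0.072, 0.038, 0.024 and 0.14.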
